A study of Rattus norvegicus with 20 samples.

Results

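The genes described here handle high-energy phosphate in muscle: the creatine kinases Ckm, Ckmt2 and Ckb, the adenylate kinase Ak1, the AMP deaminases Ampd1 and Ampd3, and the subunits Prkaa1, Prkaa2, Prkab1 and Prkag1 of AMP-activated protein kinase (AMPK). They were chosen by name: every probe set of the array whose only gene symbol in the platform annotation is 1 of these 10 was taken. That gave 12 probe sets for 9 genes, of 8799 probe sets on the array, and the annotation listed none for Ak1. Of the 12, 11 probe sets of 8 genes were bright enough to be tested, and the probe set of Prkaa1 was not.

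The RNA came from skeletal muscle of the rear leg of rats, 1 array per sample, in 4 groups of 5. The groups were diabetic rats given vanadyl sulfate, diabetic rats without it, normal rats given vanadyl sulfate, and normal rats without it. Vanadyl sulfate contains vanadium and is known to mimic some actions of insulin. The labels used here do not name the strain, sex or age of the rats, the model of diabetes, the muscle within the leg, or the vanadyl dose and its duration. They also do not say whether replicates were separate animals, so the p-values measure the spread between these samples.

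A muscle fibre buffers its ATP with phosphocreatine. Mitochondrial creatine kinase charges creatine with phosphate from newly made ATP, and cytosolic creatine kinase hands that phosphate back to ADP beside the myosin heads and calcium pumps. When ATP use outruns supply, adenylate kinase turns ADP into ATP and AMP, AMP deaminase removes the AMP as IMP, and AMPK, an enzyme of a catalytic alpha, a scaffolding beta and a nucleotide-binding gamma subunit, senses the AMP and switches on fuel uptake and oxidation.

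The start regions of the creatine kinase genes are shown because the only member called was a creatine kinase, Ckmt2, and its sequence can be read beside those of its isoforms. Each sequence is RefSeq's, on the GRCr8 build, and holds 250 bases before and 50 after the annotated start of the gene. It is written 5′ to 3′ along the gene's strand, and capitals mark the E-box CANNTG, the motif that muscle regulatory factors of the MyoD family can bind. The Ckm region is chr1:88189211-88189510 on the plus strand, the Ckmt2 region chr2:24845462-24845761 on the minus strand and the Ckb region chr6:136553415-136553714 on the minus strand.
Ckm: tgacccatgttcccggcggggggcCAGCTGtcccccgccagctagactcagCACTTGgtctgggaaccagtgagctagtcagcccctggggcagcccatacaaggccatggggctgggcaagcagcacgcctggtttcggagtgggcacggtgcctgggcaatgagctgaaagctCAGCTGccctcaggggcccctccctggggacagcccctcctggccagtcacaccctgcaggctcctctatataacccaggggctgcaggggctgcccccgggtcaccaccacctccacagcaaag
Ckmt2: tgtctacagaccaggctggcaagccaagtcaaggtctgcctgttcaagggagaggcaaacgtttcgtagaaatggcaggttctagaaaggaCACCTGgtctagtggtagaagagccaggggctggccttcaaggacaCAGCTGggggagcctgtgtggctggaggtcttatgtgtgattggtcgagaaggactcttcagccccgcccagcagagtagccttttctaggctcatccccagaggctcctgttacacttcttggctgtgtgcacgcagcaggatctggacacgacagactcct
Ckb: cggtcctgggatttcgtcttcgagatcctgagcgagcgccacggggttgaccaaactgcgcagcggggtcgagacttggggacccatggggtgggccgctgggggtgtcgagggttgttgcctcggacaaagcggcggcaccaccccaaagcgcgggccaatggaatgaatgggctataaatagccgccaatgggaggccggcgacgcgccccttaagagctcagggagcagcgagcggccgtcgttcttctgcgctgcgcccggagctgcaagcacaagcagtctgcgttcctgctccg

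CANNTG reads the same on both strands. It occurred 3 times in the Ckm region, with first bases at -226, -199 and -75 from the start, and 2 times in the Ckmt2 region, at -159 and -113. Its stricter form CAGCTG, counted among these, occurred 2 times in Ckm and 1 time in Ckmt2. The Ckb region held no CANNTG. It held TATAAA once and CCAAT 2 times on either strand, and the Ckmt2 region held CCAAT 1 time. Among 33469 rat start regions of the same length, 72.1% held CANNTG, 15.1% CAGCTG, 14.2% TATAAA and 37.5% CCAAT. At least 3 copies of CANNTG were present in 16.6% of them and at least 2 in 38.6%. A match describes the letters only.

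Arrays had median signals of 377.3 to 647.8. All 9 fast muscle fibre markers with a probe set, among them Acta1 and Tnnc2, were bright enough to be tested, which fits the labelled tissue. RNA quality was read from the Gapdh control as 3′ over 5′ signal, on the log2 scale, which reached 3.94 in vanadyl-treated diabetic replicate 1. It was also high in normal replicates 1 and 3 (2.90 and 2.91), and no other array passed 1.31. Diabetic replicates 1 and 3 stood apart by immune cell markers. The summed signal of these markers was 84090 and 79620 there, against 18400 to 28710 in the other 3 diabetic arrays and 8344 to 14540 in normal arrays. Where leaving out these arrays ended a call, turned a sign or moved a value by over 1.5 times, values without them are given for some results only. A result shown without such a value need not be stable.

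Diabetic muscle was set against normal muscle to ask what diabetes changed in untreated rats. Ckmt2, the mitochondrial creatine kinase of striated muscle, fell, and both of its probe sets passed. Neither cytosolic creatine kinase, AMP deaminase nor AMPK subunit passed. Thus 2 of 11 probe sets were called, both lower, where 1.83% of all 6027 tested probe sets were called, 1.26% higher and 0.564% lower. An unadjusted p under 0.05 was found for 4 of the 11 and for 16.7% of all. Ckmt2 signal at X59736mRNA_g_at was 23727, 41399, 19708, 41748 and 38073 in diabetic muscle, against 74138, 70824, 112989, 82198 and 85743 in normal muscle. Every diabetic array lay below every normal array. On the log2 scale the group means were 14.94 ± 0.50 in diabetic and 16.36 ± 0.26 in normal muscle (SD, n = 5 each), a change of -1.42 ± 0.35 (SE), which is 2.67-fold lower (limma, adjusted p = 0.0450). The other probe set, X59736mRNA_at, read 8367, 14183, 5331, 19448 and 12773 in diabetic muscle and 35706, 34617, 28820, 42749 and 41035 in normal muscle. These groups did not overlap either. Its change was -1.73 ± 0.40, or 3.31-fold lower (adjusted p = 0.0299). The probe sets come from the same transcript, so they are not independent.

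**Figure D1:**
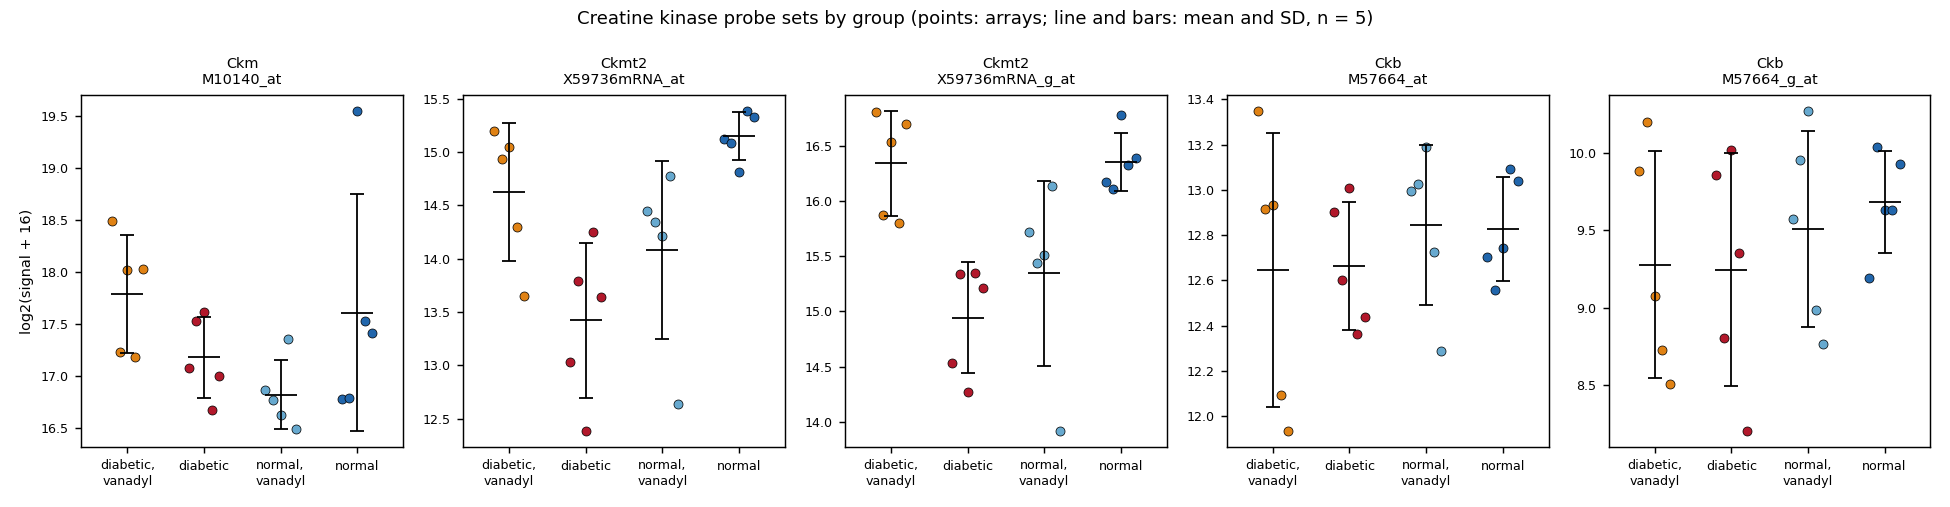
The vertical axis gives log2(signal + 16) of the 5 creatine kinase probe sets in the 4 groups, with 1 point per array and the mean and SD (n = 5) as line and bars. Both Ckmt2 panels have every diabetic array below every normal array, and the Ckm panel shows normal replicate 3 far above the other normal arrays.

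The lowest Ckmt2 signals of the diabetic group were those of replicates 1 and 3, the arrays with the highest immune marker sums. Without these 2 arrays the log2 changes were -1.06 for X59736mRNA_g_at and -1.25 for X59736mRNA_at, and neither passed (adjusted p = 0.499 and 0.479). With the 3′ to 5′ ratios of Gapdh and beta-actin as covariates they were -1.14 and -1.49 (adjusted p = 0.222 and 0.165). With the 3 high-ratio arrays dropped, X59736mRNA_g_at had -1.33 (adjusted p = 0.0570) and X59736mRNA_at -1.84 (adjusted p = 0.0291). All 9 fast fibre markers were lower in diabetic muscle (median -0.45, 0 called). Of the slow fibre markers 4 of 5 were higher (median 0.05, 0 called). The fast marker changes include normal replicate 3, with a summed signal of 2998000 against 680000 to 1030000 in the other normal arrays. Their median without that array is not given here, and the part of either marker list in the Ckmt2 difference was not tested. Over 19 alternatives both probe sets stayed lower, and the call was lost in 12 for X59736mRNA_g_at and in 7 for X59736mRNA_at. In whole muscle, fewer fibres that express a gene and less RNA per fibre cannot be told apart.

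Ckm, the creatine kinase of the myofibril and cytosol, had the brightest signal on the array in 15 of 20 arrays, controls aside. It read 138214, 188827, 199892, 104602 and 130505 in diabetic muscle, against 111979, 112797, 764297, 188250 and 174624 in normal muscle. The groups overlapped, and normal replicate 3 was over 4 times any other normal array. The log2 change of Ckm was -0.43 ± 0.42, with a 95% interval of -1.30 to 0.44 (adjusted p = 0.627). Without normal replicate 3 it was 0.05. Fast fibre markers shared that array's height: their summed signal was 2998000 there and 680000 to 1030000 in the other normal arrays. The same array had a high Gapdh ratio (2.91). Over 20 arrays the log2 signal of Ckm had a Pearson r of 0.64 with that ratio and 0.27 with the beta-actin ratio. The part of fibre content or RNA quality in the Ckm signal was not tested.

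Ckb, the brain-type isoform that muscle holds in smaller amounts, read 5256 to 8225 in diabetic and 6018 to 8713 in normal muscle at M57664_at, with medians of 6190.4 and 6846. Its log2 changes were -0.17 (95% interval -0.73 to 0.40) at this probe set and -0.44 (-1.25 to 0.37) at M57664_g_at. The ranges overlapped at both. The -1.42 of Ckmt2 at X59736mRNA_g_at lies outside both intervals, though the difference between the genes was not tested. Without diabetic replicates 1 and 3 the Ckb changes were -0.36 at M57664_at and -0.90 at M57664_g_at, beside -1.06 for Ckmt2 at X59736mRNA_g_at.

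**Figure D2:**
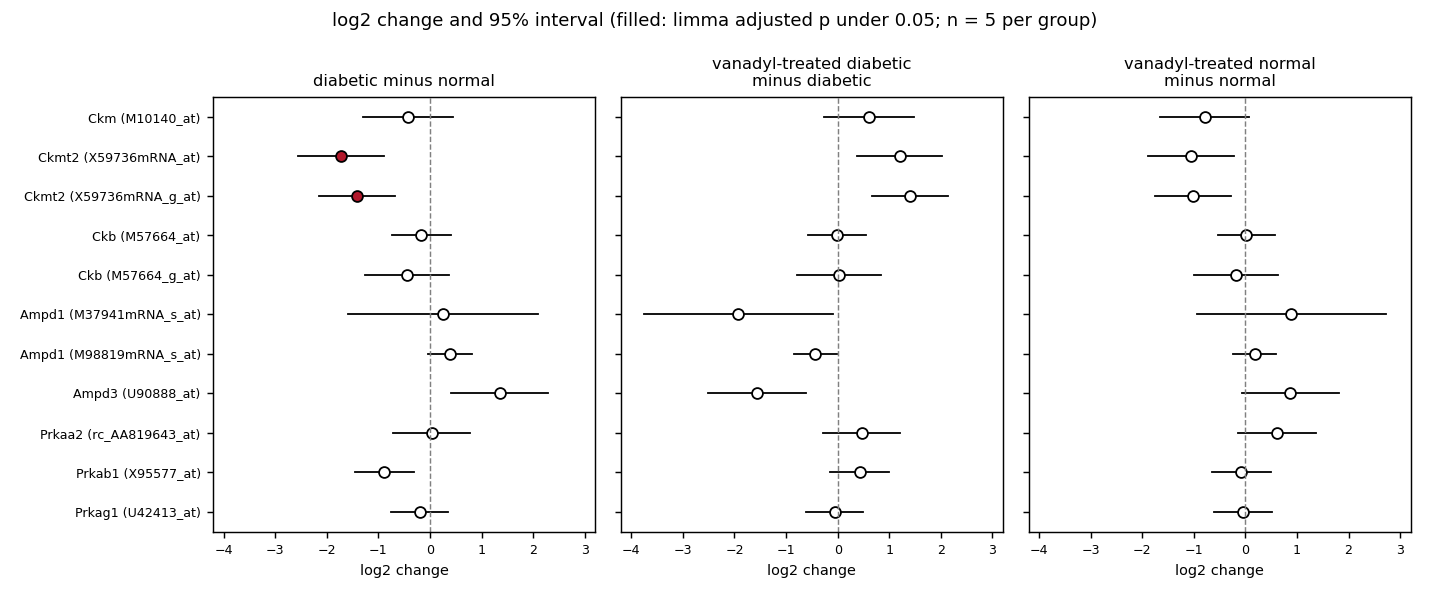
Points give the log2 change of the 11 tested probe sets in 3 comparisons, with 95% intervals as lines (n = 5 per group); filled points passed limma's test at an adjusted p under 0.05. The 2 Ckmt2 probe sets are the filled ones, in diabetic minus normal muscle, and their points lie right of 0 in vanadyl-treated diabetic minus diabetic muscle and left of 0 in vanadyl-treated normal minus normal muscle.

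AMP deaminases had positive log2 changes in diabetic muscle, and none passed. Ampd3, the isoform first described in red blood cells and also expressed by muscle, read 1294, 389, 705, 530.2 and 466 in diabetic muscle, against 299, 361, 96.9, 289 and 212 in normal muscle. All 5 diabetic arrays lay above all 5 normal arrays. The log2 change of Ampd3 was 1.35 ± 0.45 on the log2(signal + 16) scale (limma, adjusted p = 0.128), and without diabetic replicates 1 and 3 it was 0.94 (adjusted p = 0.727). Ampd3 is dim, with a signal past the array's own 40th percentile in 5 of 5 diabetic and 2 of 5 normal arrays, and its change was 0.83 with a pseudocount 16 times as large. Blood marker sums overlapped, at 18310 to 37690 in diabetic and 18440 to 59740 in normal muscle. Immune marker sums did not, at 18400 to 84090 in diabetic and 8344 to 14540 in normal muscle. The 2 highest diabetic Ampd3 signals, 1294 and 705, were those of replicates 1 and 3, the arrays with the highest immune sums. The part of blood or immune cells in the Ampd3 difference was not tested.

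Ampd1, the main isoform of skeletal muscle, is read by a pair of probe sets that did not behave alike. M98819mRNA_s_at read 40493, 44703, 43320.3, 35958 and 37935 in diabetic muscle, against 33769, 31119, 32518, 23429 and 34683 in normal muscle. These groups did not overlap, and the difference was small, with a log2 change of 0.39 ± 0.20 (adjusted p = 0.341). M37941mRNA_s_at read 12147 to 21440.1 in diabetic and 2183 to 38792 in normal muscle, with a log2 change of 0.25 ± 0.88 (adjusted p = 0.917). Its lowest normal values, 2183 and 5537, were those of replicates 1 and 3, the arrays of high Gapdh ratio, and over 20 arrays its log2 signal had a Pearson r of -0.77 with that ratio, against -0.40 for M98819mRNA_s_at. Without the 3 arrays of high ratio its change was -1.01 (adjusted p = 0.491). In all, 4 of the 11 probe sets had groups that did not overlap, both of Ckmt2, Ampd3 and 1 of Ampd1, where 5.09% of all tested probe sets had.

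**Figure D3:**
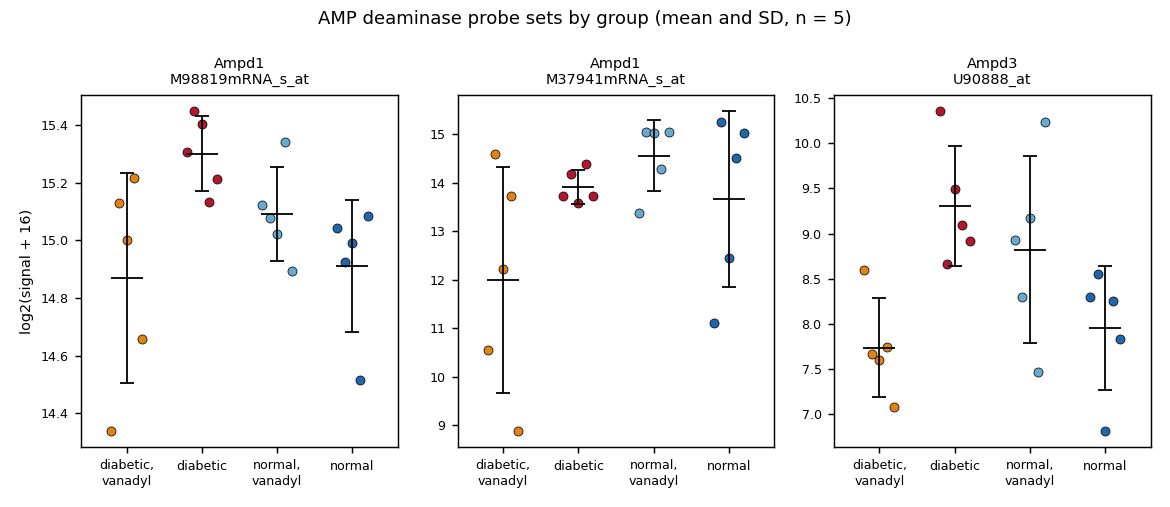
The vertical axis gives log2(signal + 16) of the 3 AMP deaminase probe sets in the 4 groups, with 1 point per array and the mean and SD (n = 5). Ampd3 is higher in every diabetic array than in every normal array and every vanadyl-treated diabetic array, while the Ampd1 probe set M37941mRNA_s_at spreads widely within the vanadyl-treated diabetic and normal groups.

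Of the AMPK subunits, Prkab1, which encodes the scaffolding beta1 subunit, had the largest difference. It read 1453, 855, 1265, 924.5 and 1308 in diabetic muscle, against 1845, 2622, 1263, 2112 and 3270 in normal muscle. Normal replicate 3 fell within the diabetic range and the other 4 normal arrays lay above it. The log2 change of Prkab1 was -0.89 ± 0.27, or 1.85-fold lower (limma, adjusted p = 0.103). It passed in 2 of 19 alternatives. These were the fit without normal replicate 3 (-1.07, limma, adjusted p = 0.0485) and that without the 3 arrays of high Gapdh ratio (-1.20, adjusted p = 0.0233). Over the 19 the change stayed negative, at -1.20 to -0.73, and the adjusted p reached 0.369.

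Prkaa2, the catalytic alpha2 subunit that predominates in muscle, read 1999 to 3120 in diabetic and 1373 to 4941 in normal muscle, with medians of 2153 and 1936. Its log2 change was 0.03, with a 95% interval of -0.72 to 0.78. The Prkaa2 change was 0.56 without the arrays of high Gapdh ratio. It was -0.37 with the Gapdh and beta-actin ratios as covariates. Neither value passed (limma, adjusted p = 0.345 and 0.723). Prkag1, the nucleotide-binding gamma1 subunit, read 1273 to 3071 in diabetic and 1506 to 3564 in normal muscle, with a change of -0.20 (-0.75 to 0.35). Both groups overlapped for both genes. Prkaa1, the alpha1 subunit found in most tissues, read 82.0 to 266 in diabetic and 81.1 to 289.7 in normal muscle. None of these Prkaa1 readings reached the array's 40th percentile, and 4 of all 20 did, so it was not tested.

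**Figure D4:**
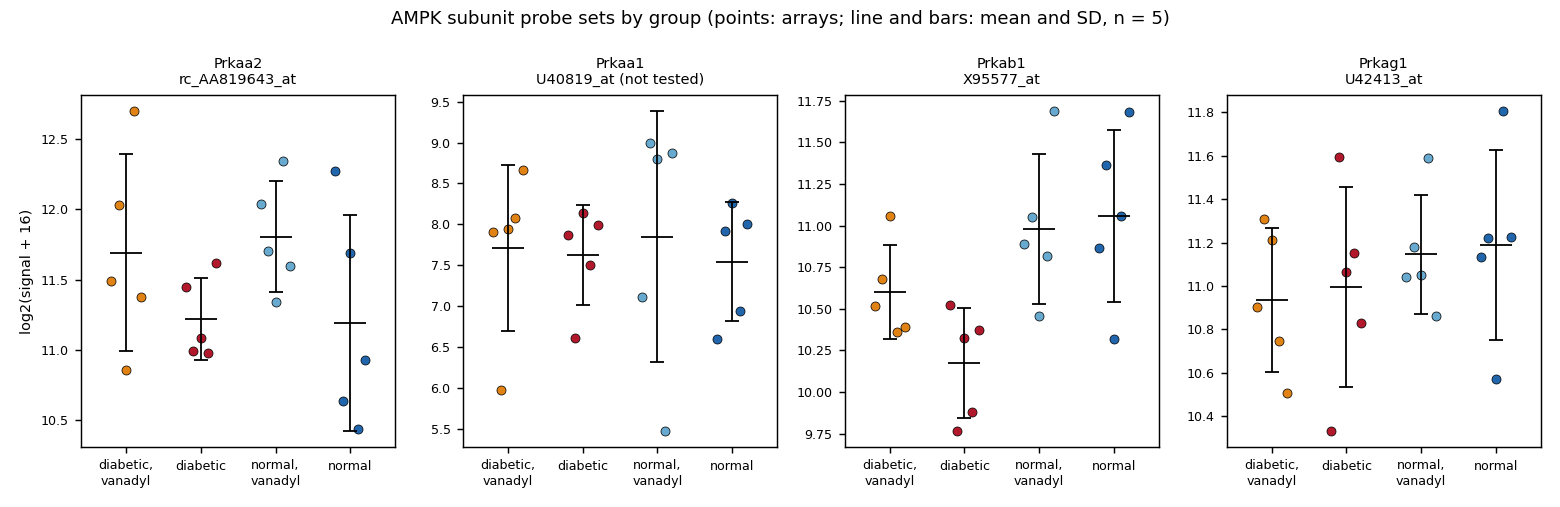
The vertical axis gives log2(signal + 16) of the 4 AMPK subunit probe sets in the 4 groups, with 1 point per array and the mean and SD (n = 5). Prkab1 is lower in diabetic than in normal muscle in all but normal replicate 3, and the groups overlap for Prkaa2, Prkaa1 and Prkag1.

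Vanadyl-treated diabetic muscle was compared with diabetic muscle that had none, which tests the treatment within diabetes. No member passed limma's test (0 of 11, where 0.498% of all tested probe sets were called, 0.0498% higher and 0.448% lower), and 5 had an unadjusted p under 0.05, where 16.3% of all did. This comparison and the one above share the diabetic arrays, so opposite signs between them are not independent. Ckmt2 at X59736mRNA_g_at read 114615, 60012, 95038, 56943 and 106849 in treated muscle, and 41748 at most in untreated diabetic muscle. All treated arrays lay above all untreated ones. The log2 means were 16.34 ± 0.47 and 14.94 ± 0.50 (SD, n = 5 each), a difference of 1.40 ± 0.35 or 2.64-fold (adjusted p = 0.0813). It passed in 1 of 19 alternatives, that with a pseudocount 16 times as large (limma, adjusted p = 0.0456). The difference was positive in all 19, and its adjusted p reached 0.511.

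At the other Ckmt2 probe set, X59736mRNA_at, treated arrays read 37489, 31331, 33921, 20143 and 12832, and the last of these lay within the untreated range of 5331 to 19448. The difference was 1.21 ± 0.40 (adjusted p = 0.164). Without diabetic replicates 1 and 3 the differences were 1.04 for X59736mRNA_g_at and 0.73 for X59736mRNA_at. Immune marker sums were lower in all treated arrays, 10270 to 17310, than in untreated diabetic arrays, 18400 to 84090, and fast fibre marker sums were 894700 to 1826000 against 636500 to 929800. Of the fast markers 8 of 9 were higher (median 0.71, 0 called), while all 5 slow fibre markers were lower (median -1.12, 0 called), with summed signals of 51880 to 456100 in treated and 131300 to 378500 in untreated diabetic muscle. The part of these markers in the Ckmt2 difference was not tested.

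Ampd3 ran the other way. It read 373, 187, 178, 199 and 119 in treated diabetic muscle, against 389 to 1294 in untreated diabetic muscle, with no overlap. The log2 change of Ampd3 was -1.56 ± 0.45 (limma, adjusted p = 0.122). It was -1.15 without diabetic replicates 1 and 3 (adjusted p = 0.538) and -0.94 with a pseudocount 16 times as large. In treated diabetic muscle 1 of 5 arrays had an Ampd3 signal past its 40th percentile. Immune marker sums were lower in the treated arrays, and their part in the Ampd3 difference was not tested. Ampd1 at M37941mRNA_s_at read 1472, 24793, 4758, 13556 and 455 in treated muscle, against 12147 to 21440.1 in untreated muscle. The log2 change there was -1.93 ± 0.88 (adjusted p = 0.281), and -1.22 with the 3′ to 5′ ratios as covariates and -1.15 without treated replicate 5. At M98819mRNA_s_at it was -0.43 ± 0.20 (adjusted p = 0.289). Non-overlapping groups were found for 2 of the 11 probe sets, where 4.45% of all had them.

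Ckm read 367888, 153178, 265327, 148317 and 267066 in treated diabetic muscle, against 104602 to 199892 in untreated diabetic muscle. The groups overlapped, and the log2 change of Ckm was 0.61 ± 0.42 (adjusted p = 0.474). Under quantile normalization, which gives the brightest probe set of every array the same value, it was -0.08. Changes at the 2 Ckb probe sets were -0.02 and 0.03, with both intervals between -0.78 and 0.84. Those of Prkaa2, Prkab1 and Prkag1 were 0.47 (95% interval -0.28 to 1.21), 0.43 (-0.14 to 1.00) and -0.06 (-0.61 to 0.49).

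Vanadyl sulfate in normal rats was tested to ask what the treatment does without diabetes. No member passed limma's test (0 of 11, where 0.0664% of all were called), and 2 had an unadjusted p under 0.05, where 9.23% of all did. Those 2 were the Ckmt2 probe sets, and both were lower. X59736mRNA_at read 22376, 20704, 18991, 28058 and 6349 in treated normal muscle, all below the lowest untreated normal reading of 28820. It was the only 1 of the 11 whose groups did not overlap, where 1.84% of all did not. The log2 changes of Ckmt2 were -1.06 ± 0.40 at X59736mRNA_at (adjusted p = 0.475) and -1.01 ± 0.35 at X59736mRNA_g_at (adjusted p = 0.406). Replicate 5 was the lowest treated array at both, and without it the changes were -0.70 and -0.66. All 5 slow fibre markers (median -0.99) and 8 of 9 fast fibre markers (median -0.60) were lower too, with 0 called in either list. The fast marker changes include normal replicate 3, where the summed fast marker signal was 2998000. The part of either list in the Ckmt2 difference was not tested.

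The same array had the highest Ampd3 signal of its group. Ampd3 read 473, 298, 562, 161 and 1189 in treated normal muscle, against 96.9 to 361 in untreated normal muscle, a log2 change of 0.87 ± 0.45 (adjusted p = 0.566). Ckm read 92197 to 167720.5 in treated normal muscle, with a change of -0.79 ± 0.42 (adjusted p = 0.569), and -0.30 without normal replicate 3. Prkaa2 read 2574 to 5191 against 1373 to 4941, a change of 0.61 ± 0.36 (adjusted p = 0.608). The changes of Prkab1, Prkag1 and the 2 Ckb probe sets lay between -0.18 and 0.02, and that of Ampd1 at M98819mRNA_s_at was 0.18. Without the 3 arrays of high Gapdh ratio Prkaa2 had 1.14, Prkab1 -0.39, Prkag1 -0.27 and Ckb at M57664_g_at -0.36. Ampd1 at M37941mRNA_s_at had 0.89 ± 0.88 (adjusted p = 0.767), which turned to -0.38 without the 3 arrays of high Gapdh ratio.

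The interaction asks whether the treatment difference in diabetic rats was unlike that in normal rats. No member passed it (0 of 11, where 0.166% of all were called), and 6 had an unadjusted p under 0.05, where 13.3% of all did: Ckm, both probe sets of Ckmt2, both of Ampd1, and Ampd3. For Ckmt2 the treatment difference was 2.42 ± 0.50 higher in diabetic than in normal rats at X59736mRNA_g_at (limma, adjusted p = 0.0513) and 2.27 ± 0.56 higher at X59736mRNA_at (adjusted p = 0.117). It passed at X59736mRNA_g_at with a pseudocount 16 times as large (adjusted p = 0.0278) and in 4 of 20 fits that left out 1 array. For Ampd3 the interaction was -2.43 ± 0.64 (adjusted p = 0.121; -1.48 with that pseudocount), and for Ckm 1.40 ± 0.59 (adjusted p = 0.311). The Ckm value was 0.92 without normal replicate 3, 0.59 with the 3′ to 5′ ratios as covariates and 0.01 under quantile normalization. For Ampd1 at M37941mRNA_s_at it was -2.81 ± 1.24 (adjusted p = 0.331), and -1.19 with the 3 high-ratio arrays dropped. Of the fast fibre markers 8 of 9 had a positive interaction (median 1.33, 0 called), in values that include normal replicate 3. For Ckb, Prkaa2 and Prkag1 the values lay between -0.14 and 0.21. Without diabetic replicates 1 and 3 Ckb at M57664_g_at had 0.67. With the 3 high-ratio arrays dropped Prkaa2 had -0.62 and Prkag1 0.22.

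Vanadyl-treated diabetic muscle was also set against untreated normal muscle and against treated normal muscle. No member passed either (0 of 11 each), and 0 of 6027 probe sets were called in either by limma, which is 0%. At an unadjusted p under 0.05 these were 0 and 4 members, and 12.8% and 17.9% of all (770 and 1076 probe sets). Groups without overlap were found for 0 members in either, and for 0.68% and 3.22% of all. Against untreated normal muscle, Ckmt2 at X59736mRNA_g_at differed by -0.01, with a 95% interval of -0.75 to 0.72, and at X59736mRNA_at by -0.52 (-1.35 to 0.31). Ampd3 differed by -0.21 (-1.16 to 0.73), Prkab1 by -0.46 (-1.03 to 0.12) and Prkaa2 by 0.50 (-0.25 to 1.24). The largest member difference was that of Ampd1 at M37941mRNA_s_at, -1.67 ± 0.88 (limma, adjusted p = 0.424). Without the 3 arrays of high Gapdh ratio Ampd3 had -0.69, Prkab1 -0.75, Prkaa2 1.07 and Ampd1 at M37941mRNA_s_at -2.57. Against treated normal muscle, Ckmt2 was 1.00 ± 0.35 higher at X59736mRNA_g_at (adjusted p = 0.174) and Ampd3 differed by -1.08 ± 0.45 (adjusted p = 0.224; -0.65 with the larger pseudocount). The largest difference from treated normal muscle was also that of Ampd1 at M37941mRNA_s_at, -2.56 ± 0.88 (adjusted p = 0.164). It was -1.16 with the 3′ to 5′ ratios as covariates, and -1.78 to -3.21 with 1 array left out.

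Across the 4 groups Ckmt2 at X59736mRNA_g_at thus ranked normal (16.36 ± 0.26), treated diabetic (16.34 ± 0.47), treated normal (15.34 ± 0.84) and diabetic (14.94 ± 0.50, mean log2 signal ± SD, n = 5 each). Normal and treated diabetic muscle differed by less than their spread, as did treated normal and diabetic muscle. Ampd3 ranked diabetic (9.30 ± 0.66), treated normal (8.82 ± 1.03), normal (7.95 ± 0.68) and treated diabetic (7.74 ± 0.55). Neighbours in that order lay within their spread.

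Over the 20 arrays, log2 signals of Ckmt2 at X59736mRNA_g_at and of Ampd3 had a Pearson r of -0.84 and a Spearman rho of -0.78. The pair was picked after its values were seen, as the farthest from 0 of 63 pairs of probe sets of different genes, so it is a description with no test. The r was -0.68 once the group means were removed and -0.78 without the 2 arrays farthest from the median of Ckmt2. With X59736mRNA_at it was -0.63, and -0.35 once group means were removed. The points share the scaling of each array. Their Pearson r with the Gapdh ratio was 0.43 for X59736mRNA_g_at and -0.22 for Ampd3.

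**Figure D5:**
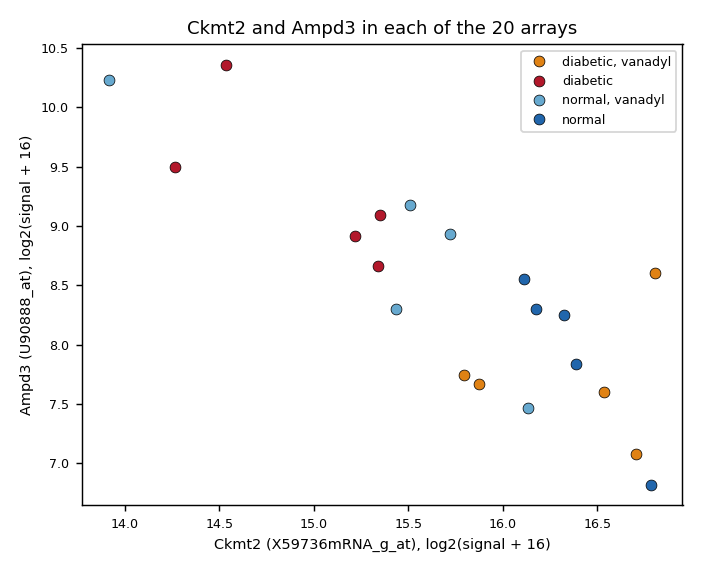
Each point is 1 of the 20 arrays, with log2(signal + 16) of Ckmt2 (X59736mRNA_g_at) on the horizontal axis and of Ampd3 (U90888_at) on the vertical axis, coloured by group. The vanadyl-treated diabetic arrays lie to the right with low Ampd3, save 1 at about the level of the lowest diabetic array, and the diabetic arrays to the left with higher Ampd3 (Pearson r = -0.84).

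Genes most like a member were sought over the 20 arrays among 3581 other genes. Ckm was most like the fast troponin C gene Tnnc2, the skeletal actin gene Acta1 and the tropomyosin gene Tpm1, each with a Pearson r of 0.99, also once group means were removed. Ampd1 at M98819mRNA_s_at was most like Ssrp1 (0.79), Igfbp3 (0.75) and Pcm1 (0.74). Prkaa2 was most like the sterol enzyme Cyp51 (0.75), the coatomer gene Copb2 (0.74) and the amine oxidase Maoa (0.74). These are descriptions, and the values of an array share its scaling.

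Related genes were read from 3 lists, taking the brightest probe set of a gene. In creatine synthesis, creatine uptake and mitochondrial nucleotide exchange, 8 of 11 genes were tested, and in diabetic against normal muscle 0 rose, 0 fell and 8 did not pass. Their median log2 change was -0.49, where that of all tested probe sets was -0.06. Of the 8, 7 were negative and 1 was positive, where 44.9% of all tested probe sets were positive. The mitochondrial phosphate carrier Slc25a3 had -0.77 ± 0.22 (limma, adjusted p = 0.0732), and Gamt and Gatm, the 2 enzymes of creatine synthesis, had -1.84 ± 0.70 and -0.67 ± 0.28 (adjusted p = 0.175 and 0.222). In treated against untreated diabetic muscle this list had a median of 0.23 (all tested, 0.08), and Slc25a3 had 0.71 ± 0.22 (adjusted p = 0.128). In treated against untreated normal muscle the median was -0.56 (all tested, 0.18). No gene of the list passed in any of the 6 comparisons.

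Of 15 other adenine nucleotide and purine enzymes, 5 were tested. Xdh, the xanthine dehydrogenase that makes uric acid, rose in diabetic against normal muscle (1.24 ± 0.31, 2.36-fold, limma, adjusted p = 0.0475), 0 fell and 4 did not pass; the call of Xdh was lost in 15 of 19 alternatives, in each of which it stayed positive. Ak3, an adenylate kinase of the mitochondrial matrix, had 1.14 ± 0.33 (adjusted p = 0.0838), the adenosine kinase Adk -1.02 ± 0.43 (adjusted p = 0.231) and Aprt, which salvages adenine, 0.20. In treated against untreated diabetic muscle Xdh and Ak3 had -0.81 and -0.70 (adjusted p = 0.227 and 0.306).

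Of 18 AMPK partners and targets, 8 were tested. Lipe, the hormone-sensitive lipase, which AMPK phosphorylates, rose in diabetic muscle (1.09 ± 0.27, 2.12-fold, limma, adjusted p = 0.0446), 0 fell and 7 did not pass; the call of Lipe was lost in 12 of 19 alternatives. Lipe is also abundant in fat, and adipocyte marker sums were 24330 to 43890 in diabetic and 11840 to 22900 in normal muscle, without overlap; their part in the rise was not tested. The elongation factor 2 kinase Eef2k had -0.46, the muscle carnitine palmitoyltransferase Cpt1b 0.49 and the acetyl-CoA carboxylase Acacb -1.06 ± 0.90 (adjusted p = 0.461, 0.482 and 0.566). In the other 5 comparisons 0 genes of these 2 lists passed by limma.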

How the data were processed

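The authors deposited 1 signal intensity per probe set and array on a linear scale, made with MAS5 per the submitters' processing notes, with no version named there. After trimming 2% at each end the mean signal was 2503.4 to 2506.5 in the 20 arrays, so the deposited scaling was kept. No detection calls are given in the table used here.

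Values were analysed as log2(signal + 16). The 59 control probe sets were left out, and tested probe sets were those that exceeded the array's 40th percentile in at least 5 arrays (6027 probe sets). Genes were named from the platform annotation, from probe sets with 1 symbol only; 7018 have 1, 308 several and 1473 are not listed. Group means of all 20 arrays were fitted with limma 3.58.1 (lmFit, eBayes; R 4.3.3), two-sided, with Benjamini-Hochberg adjustment over 6027 probe sets in each of 6 comparisons and a threshold of 0.05. The script recovered known changes in simulated data. No 2 arrays held the same values.

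All 10 members were named, with the related genes past the test and up to 3 further genes per list with the smallest p in diabetic against normal muscle. The members, lists and tests were chosen with earlier results of these data known. No genome build is given for the arrays; start regions are RefSeq's, matched by symbol for 8 of the 10 members, and no region was matched for Ak1 or Ampd3.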

Additional observations from a re-analysis of the deposited data

Results flagged for a closer look

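In 44 checks of 1 probe set in 1 group of 5 arrays, 3 arrays stood far from the other 4 of their group; chance alone flags about 1 group in 20. Ckm was far higher in normal replicate 3 (764297) than in the other normal arrays. Ckmt2 at X59736mRNA_at was lowest in vanadyl-treated normal replicate 5 (6349), and Ampd1 at M98819mRNA_s_at was lowest in normal replicate 4 (23428.5).

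On the log2 scale, for Ckm and for both probe sets of Ckmt2, every vanadyl-treated diabetic array lay above the mean of untreated diabetic muscle and every vanadyl-treated normal array below the mean of untreated normal muscle. For Ckm this was narrow: treated diabetic replicate 4 (148317) lay below the untreated mean on the linear scale, and without normal replicate 3 a treated normal array (replicate 4) lay above the mean of the other normal arrays. The interaction was 1.40 for Ckm (limma, adjusted p = 0.311; 0.92 without normal replicate 3), 2.27 for Ckmt2 at X59736mRNA_at (adjusted p = 0.117) and 2.42 at X59736mRNA_g_at (adjusted p = 0.0513), so none of the 3 passed the test of the difference itself.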

How the results depend on the processing

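The 2 member calls in diabetic against normal muscle, both Ckmt2, became 1 with no filter, 0 with the 3′ to 5′ ratios as covariates, 0 without both diabetic replicates 1 and 3, and 1 with the replicate number as a replicate block; leaving out 1 array of either group gave 0 to 2. Without the 3 arrays of high Gapdh ratio there were 2 as well, but not the same ones: Ckmt2 at X59736mRNA_g_at was lost (adjusted p = 0.0570) and Prkab1 was gained (adjusted p = 0.0233). In vanadyl-treated against untreated diabetic muscle and in the interaction, the 0 calls became 1 with a pseudocount 16 times as large, and leaving out 1 array gave 0 in the comparison and 0 to 1 in the interaction. The other 3 comparisons had 0 member calls under all alternatives run. Deviations of arrays with the same replicate number had a median r of 0.07 over 30 pairs (-0.28 to 0.62). For other numbers the median was 0 over 120 pairs (-0.49 to 0.41). A median near 0 cannot show that no arrays are linked by number, and the block is given as a value only. Of 1353 log2 changes of member probe sets under an alternative, 19 lost a call, 8 gained one, 86 that passed in neither fit changed sign, and 0 with a call reversed. The cause of these shifts was not tested.

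Over all tested probe sets, the 110 calls in diabetic against normal muscle became 62 with no filter, 71 in a fit of these groups only, 32 with the ratios, 464 without the 3 arrays of high Gapdh ratio and 3 without diabetic replicates 1 and 3 (24 to 247 with 1 array left out). The 30 calls for treatment in diabetic muscle became 50 with a pseudocount 16 times as large, 19 with no filter, 11 in a fit of these groups only and 1 without diabetic replicates 1 and 3 (10 to 54 with 1 array left out). The 4 for treatment in normal muscle ran between 0 and 4 under every alternative, and the 10 of the interaction between 1 and 22. Treated diabetic against normal muscle, with 0 calls, had 359 without the 3 arrays and at most 3 with 1 array left out; against treated normal muscle the 0 became 16 with the block, 2 without the 3 arrays and up to 109 with 1 array left out. Without detection calls, low signals such as those of Ampd3 and Prkaa1 cannot be told from background.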
